A study of Mus musculus with 16 samples.

Results

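Conventional CD4 T cells (Tcon, sorted as CD4+ and FOXP3-) of mice given venetoclax were compared with the same cells of mice given vehicle. The comparison takes in the 4 venetoclax and 4 vehicle Tcon libraries, 8 of the 16 libraries of the series; the other 8 are regulatory T cells (Treg) of the same treatment groups. All mice were of the strain B6.Cg-Foxp3tm2Tch/J, genotype WT in the labels, in which a GFP reporter marks cells that express FOXP3. They received vehicle or 50 mg/kg of venetoclax for 14 days, and cells came from spleen and lymph node. The labels call the replicates biological and do not say whether a library holds 1 animal or several, and they give no age and no sex. The whole Tcon table was used after dropping 40 repeated lines, which left 11171 genes.

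Venetoclax is a small molecule that fills the groove of BCL-2 in which pro-death relatives such as BIM are held. BCL-2, BCL-XL and MCL-1 each restrain BAX and BAK, the proteins that open the outer mitochondrial membrane, and resting T cells draw on BCL-2 and MCL-1 for survival, with interleukin-7 as an upstream signal. A resting naive T cell that enters the cell cycle first raises D-type cyclins and E2F factors, then replication genes, and last the genes of mitosis.

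Each Tcon library held between 22982210 and 24960570 reads on the listed genes. Values are normalized counts, the authors' reads divided by 1 size factor per library, and each change is that of venetoclax relative to vehicle, in log2 (normalized count + 1). The T cell identity list (9 measured genes, Cd3e, Cd4 and Lck among them) summed to 126933 to 135573 normalized counts in vehicle and 129857 to 140536 in venetoclax. Of 57 marker genes of other cells 26 were measured and 0 were called by limma (3 had an unadjusted p under 0.05, edgeR called 0 and DESeq2 2). CD8 T cell markers summed to 376.4 to 569.9 in vehicle and 371.7 to 451.6 in venetoclax, B cell markers to 210.9 to 509.5 and 143.9 to 466.1, and myeloid markers to 186.9 to 263.5 and 193.96 to 414.8. Plasma cell markers summed to 234.9 to 486.8 and 45.9 to 448.1, the NK cell marker to 268.9 to 428.5 and 307.5 to 745.6, dendritic cell markers to 29.6 to 58.6 and 16.3 to 60.2, the platelet marker to 42.3 to 68.5 and 33.3 to 50.0, and the mast cell marker to 54.6 to 88.96 and 52.8 to 66.5. Erythroid markers reached 201.5 in 1 venetoclax library, against at most 56.6 in vehicle, and no measured marker was at 0 in all libraries. Stromal and endothelial markers summed to 5697 to 6554 in vehicle and 5104 to 5739 in venetoclax, nearly all of it Pecam1 (log2 -0.20, SE 0.07, limma adjusted p = 0.118; 0.0398 by DESeq2). Dntt, the 1 measured marker of immature thymocytes, did not overlap, at 348 to 469.7 in vehicle and 259 to 322 in venetoclax (log2 -0.41, SE 0.12, limma adjusted p = 0.0677; 0.02 by DESeq2 and 0.0106 with the replicate block). The part of these other cells in the results was not tested. Foxp3, which should be low in these sorted cells, stood at 648 to 761 in vehicle and 690.3 to 749 in venetoclax (log2 0.07, SE 0.08, limma adjusted p = 0.659). In the Treg libraries, normalized separately, Foxp3 lay between 18016 and 21553.

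Libraries differed in ways the groups do not explain. Ddx3y, a Y-linked gene, was at 0, 5664, 0 and 0 in vehicle replicates 1 to 4 and 1468, 6674, 3050.4 and 0.99 in venetoclax replicates 1 to 4, so 1 vehicle and 3 venetoclax libraries carry Y-linked reads, in unequal amounts. Treatment and Y-linked reads therefore cannot be fully told apart. The 2 libraries numbered 3 stood apart from the rest on the second principal component (-21.8 and -19.0, against 1.05 to 15.2). Within the libraries without Y-linked reads (vehicle replicates 1, 3 and 4 against venetoclax replicate 4) and within those with them (vehicle replicate 2 against venetoclax replicates 1 to 3), 1 library stands alone on 1 side and is assumed to vary like the others, so the medians given below for these 2 strata are descriptions.

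Of the 11171 genes, 772 passed limma's test at an adjusted p of 0.05, or 6.91% of all genes. They split into 438 that rose (3.92%) and 334 that fell (2.99%), the background for the lists below, and 132 and 47 of these moved over 2-fold. With edgeR 418 genes rose and 368 fell, and with DESeq2 681 rose and 683 fell. The share of all genes with an unadjusted p under 0.05 is larger than 6.91% and is not given here. List counts at that threshold therefore have no background and show no excess by themselves. In 754 of the 772 the 2 groups of libraries did not overlap. Over all genes, 8.78% had every venetoclax library above every vehicle library and 7.47% had every one below. With the replicate number as a block, 8.92% of genes rose and 7.9% fell, 1880 genes in all, including all 772. Leaving out 1 library at a time, as throughout below, changed the count, to 306 for venetoclax 1, 415 for venetoclax 2, 458 for vehicle 2, 461 for vehicle 1 and 1244 for vehicle 3 (venetoclax 3 gave 547 and venetoclax 4 gave 572). With the Y-linked level on the log scale as a covariate it was 326, and with the presence of Y-linked reads as a factor 317. Within the libraries with Y-linked reads 125 genes passed. Within those without, where venetoclax is 1 library, 0 passed limma's test, and 545 of the 11171 genes had an unadjusted p under 0.05, fewer than the 1 in 20 that chance alone gives. The median change over all genes was 0.00.

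Bcl2, the gene of the drug's own target (Entrez 12043; chromosome 1, 106538176 to 106714290, GRCm38.p6), was higher in every venetoclax library. It stood at 6862, 5532, 4114 and 4260.4 in vehicle replicates 1 to 4 and 11625, 12870.5, 10111 and 9986 in venetoclax replicates 1 to 4. No vehicle library reached the lowest venetoclax library (log2 1.13, SE 0.16, limma adjusted p = 0.00253). Bcl2l1, which encodes BCL-XL, was at 523, 435, 384 and 434 in vehicle replicates 1 to 4 and 589.6, 597, 579.6 and 583 in venetoclax replicates 1 to 4. The 4 venetoclax libraries lay within a narrow band, higher than the vehicle libraries (log2 0.41, SE 0.10, limma adjusted p = 0.0295), and the call was lost on leaving out any of vehicle 2 or 4 or venetoclax 1, 2, 3 or 4 (adjusted p 0.062 to 0.0947). Mcl1, the other main survival gene of T cells, overlapped between groups, at 13783, 15471, 12254 and 14288 in vehicle replicates 1 to 4 and 14347, 14227, 14435 and 13461 in venetoclax replicates 1 to 4 (log2 0.02, SE 0.08, limma adjusted p = 0.917).

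Of the measured family members, Bcl2 and Bcl2l1 alone passed limma's test. Of 7 measured anti-apoptotic members 2 rose and 0 fell with a median change of 0.08, against 3.92% and 2.99% of all genes; at an unadjusted p under 0.05 the counts were 3 and 0, with edgeR 2 and 0, and with DESeq2 2 and 0. Bcl2l2, a further survival member, had a change of 0.39 (limma adjusted p = 0.126). Of 8 pro-apoptotic members 0 passed limma's test in either direction (1 and 0 with the replicate block); at an unadjusted p under 0.05 the counts were 1 and 0, with edgeR 0 and 0, and with DESeq2 1 and 0. Bak1, a pore-forming member, was at 873 to 978 in vehicle and 1050.0 to 1222 in venetoclax (log2 0.26, SE 0.07, limma adjusted p = 0.0634), and with the replicate block its limma adjusted p was 0.022. Bcl2l11, which encodes BIM, was at 1344 to 2063 in vehicle and 1265 to 1675 in venetoclax (log2 -0.21, SE 0.14, limma adjusted p = 0.413), and Bax was at 1437 to 1680.3 in vehicle and 1382 to 1626 in venetoclax. Among 18 genes of caspases and death receptors, Casp8, the initiator caspase of death receptors, rose (log2 0.23, SE 0.06, limma adjusted p = 0.0479), a call lost on leaving out any of vehicle 1, 2 or 4 or venetoclax 1, 2, 3 or 4 (adjusted p 0.0584 to 0.149). Its change in Treg was -0.21 (log2 difference 0.44, SE 0.07, limma adjusted p = 0.00405).

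**Figure D1:**
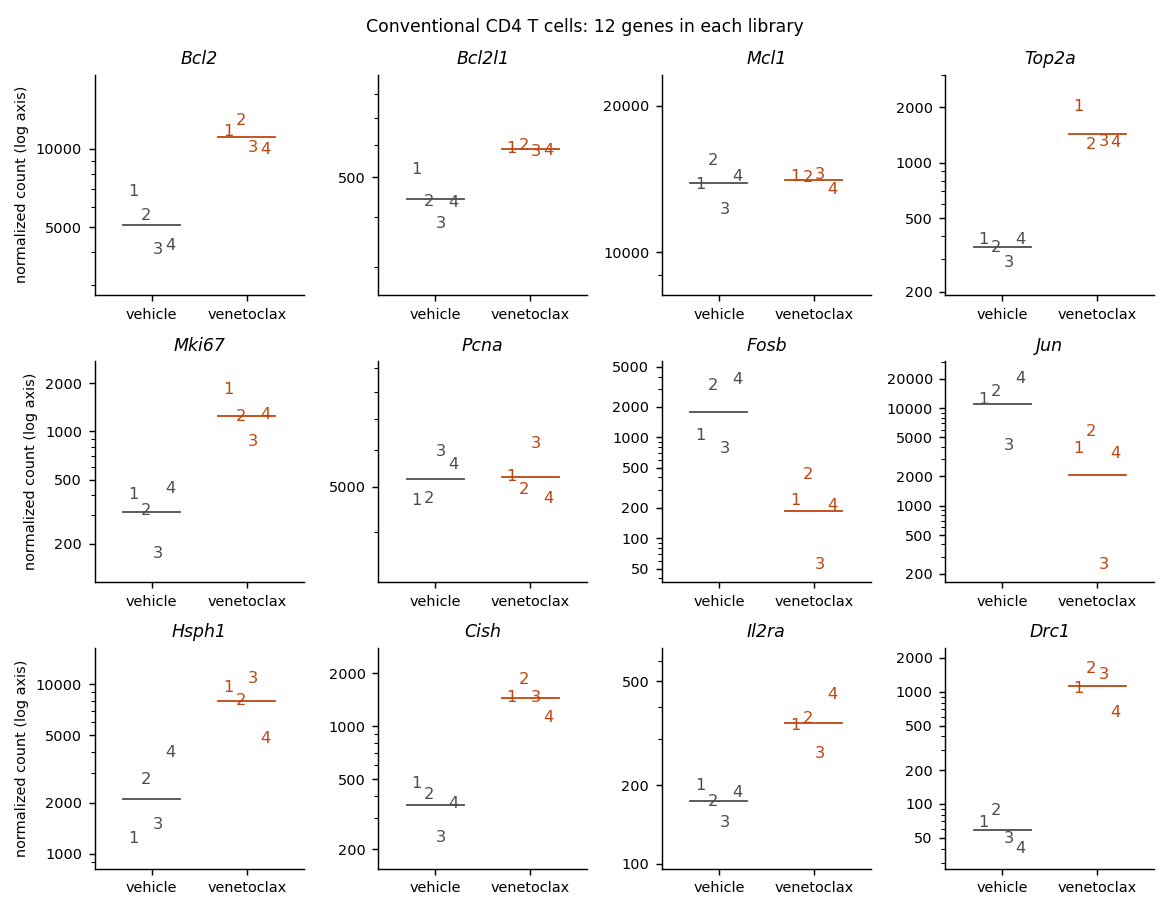
Normalized counts (log axes) of 12 genes in the 8 Tcon libraries; digits are replicate numbers and bars are geometric means of the 4 libraries of a group. Bcl2, Top2a, Mki67, Cish, Il2ra and Drc1 do not overlap between groups, whereas Mcl1 and Pcna do.

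Genes of mitosis had the highest list median. Of 84 measured genes of mitosis, spindle and kinetochore, 58 rose and 2 fell (65 and 3 with the replicate block), with a median change of 1.20. The mitosis rises numbered 45 to 62 when 1 library was left out. They were 46 with the log Y-linked level as a covariate and 24 without venetoclax replicates 1 and 3 together. The mitosis falls became 1 without venetoclax 1 or 2. Top2a, the topoisomerase that untangles sister chromosomes (Entrez 21973; chromosome 11, 98992947 to 99024199), was at 383, 345, 287 and 383 in vehicle replicates 1 to 4 and 2006, 1249, 1296 and 1281 in venetoclax replicates 1 to 4. The groups were far apart, and venetoclax replicate 1 was the highest library (log2 2.04, SE 0.16, limma adjusted p = 0.000336). Mki67, which coats mitotic chromosomes and marks cycling cells, was at 405, 321, 173 and 439.9 in vehicle replicates 1 to 4 and 1821, 1234, 859.9 and 1279 in venetoclax replicates 1 to 4 (log2 1.99, SE 0.29, limma adjusted p = 0.00329). Vehicle replicate 3 was the lowest library of its group and venetoclax replicate 1 the highest of its own.

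The genes that rose act at several steps of division. Cdk1, the kinase that starts mitosis, rose (log2 1.64, SE 0.23, limma adjusted p = 0.00279), and so did Bub1b of the spindle checkpoint (log2 1.53, SE 0.15, limma adjusted p = 0.00058), the spindle motor Kif11 (log2 2.09, SE 0.24, limma adjusted p = 0.000943) and the condensin subunit Ncapg (log2 2.03, SE 0.19, limma adjusted p = 0.000513). Esco2, which locks cohesin on replicated chromatids, was at 11.8, 11, 7.39 and 8.94 in vehicle replicates 1 to 4 and 114, 68.4, 60.5 and 66.2 in venetoclax replicates 1 to 4 (log2 2.83, SE 0.26, limma adjusted p = 0.000513). Levels stayed low in both groups for many of these genes, with Nusap1 of the spindle at 28.5 to 44.7 in vehicle and 129 to 225 in venetoclax and Aspm of the spindle pole at 10.6 to 25.8 in vehicle and 55.4 to 141 in venetoclax. The list's 2 falls, Smc4 of condensin (-0.68) and Pttg1, which encodes securin (-0.42), were chosen for naming after their values were seen. The median over all members was 1.12 within the libraries without Y-linked reads and 1.15 within those with them. Per library, the median level relative to the vehicle mean was at least 1.01 in venetoclax and at most 0.13 in vehicle.

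Replication genes divided into some that rose and more that did not pass the test. Of 49 measured members 18 rose and 1 fell (20 and 2 with the replicate block), with a median of 0.23. The rises numbered 13 to 19 when 1 library was left out. They were 11 with the log Y-linked level as a covariate and 4 without venetoclax replicates 1 and 3 together. Genes for origin licensing and firing were among the risers: Cdc6, which loads the MCM helicase, was at 28.5, 21, 21.1 and 36.7 in vehicle replicates 1 to 4 and 139.6, 84.7, 101 and 97.8 in venetoclax replicates 1 to 4 (log2 1.95, SE 0.23, limma adjusted p = 0.00106). Mcm10, which acts when the helicase fires, rose (log2 2.47, SE 0.33, limma adjusted p = 0.00179), as did Dtl, which marks the licensing factor CDT1 for degradation (log2 2.23, SE 0.29, limma adjusted p = 0.00181). Mcm5, a subunit of the helicase itself, was at 944 to 1087 in vehicle and 1251 to 1568 in venetoclax (log2 0.47, SE 0.09, limma adjusted p = 0.00921). Pclaf, the PCNA clamp-associated factor, was at 75.7, 48, 41.2 and 60.6 in vehicle replicates 1 to 4 and 371, 239.9, 189 and 235 in venetoclax replicates 1 to 4 (log2 2.17, SE 0.23, limma adjusted p = 0.000801), while Pcna itself was at 4685, 4711, 5963 and 5592 in vehicle replicates 1 to 4 and 5272, 4939.7, 6209 and 4732 in venetoclax replicates 1 to 4 (log2 0.01, SE 0.11, limma adjusted p = 0.958). The groups overlapped for Pcna and did not for Pclaf. Timeless, a fork protection factor, was at 1336 to 1520.3 in vehicle and 926 to 952 in venetoclax (log2 -0.61, SE 0.07, limma adjusted p = 0.000865). The median was 0.17 without and 0.22 with Y-linked reads.

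Genes upstream and beside replication moved as well. Of 26 genes of G1 cyclins, E2F and RB families and CDK inhibitors, 9 rose and 1 fell (11 and 3 with the replicate block). Ccnd2, the cyclin D2 gene, was at 12869, 11796, 9791 and 10282 in vehicle replicates 1 to 4 and 27240.1, 23822, 25006 and 21948 in venetoclax replicates 1 to 4, and the groups did not overlap (log2 1.14, SE 0.11, limma adjusted p = 0.000513). Ccnd3 (log2 0.76, SE 0.08, limma adjusted p = 0.000801), the cyclin D partner Cdk6 (log2 1.10, SE 0.14, limma adjusted p = 0.00164) and E2f1 (log2 1.59, SE 0.18, limma adjusted p = 0.000943) rose, and Cdkn1b, which encodes the inhibitor p27, fell (log2 -0.31, SE 0.06, limma adjusted p = 0.0129). Myc was at 1353 to 1768 in vehicle and 1755 to 2382 in venetoclax (log2 0.29, SE 0.12, limma adjusted p = 0.17; block 0.0214).

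In nucleotide synthesis 5 of 18 genes rose and 0 fell, 8 and 0 with the replicate block; at an unadjusted p under 0.05 the counts were 9 and 0, with edgeR 5 and 0, and with DESeq2 8 and 0. The nucleotide synthesis rises became 3 without venetoclax 1. Rrm2, the S phase subunit of ribonucleotide reductase, rose (log2 1.47, SE 0.19, limma adjusted p = 0.0015), and so did Tyms, thymidylate synthase (log2 1.04, SE 0.16, limma adjusted p = 0.00395). In DNA damage checkpoint and repair 12 of 37 rose and 0 fell (14 and 2 with the replicate block); at an unadjusted p under 0.05 the counts were 16 and 3, with edgeR 12 and 0, and with DESeq2 13 and 2. Chek1, the checkpoint kinase of stalled forks, was at 31.5, 27, 24.3 and 30.8 in vehicle replicates 1 to 4 and 119.8, 91.9, 109 and 94.8 in venetoclax replicates 1 to 4 (log2 1.83, SE 0.16, limma adjusted p = 0.000513), and the groups did not overlap. Of 17 p53 targets 2 rose and 1 fell (3 and 1 with the replicate block), the fall being Plk2, which is also an immediate early gene. The p53 target rises became 0 without vehicle 1 or 2 or venetoclax 1, 2 or 3 and 1 without vehicle 4 or venetoclax 4, and the falls 2 without vehicle 3. The p53 target Cdkn1a stayed at 1.06 to 23.8 in vehicle and 6.6 to 13.1 in venetoclax normalized counts.

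Histone genes did not follow the genes of mitosis. Of 48 measured core and linker histones 0 rose and 4 fell (0 and 6 with the replicate block); at an unadjusted p under 0.05 the counts were 1 and 6, with edgeR 0 and 4, and with DESeq2 0 and 5. H1f0, a linker histone of resting cells, was at 487 to 811 in vehicle and 296 to 360.5 in venetoclax (log2 -0.99, SE 0.14, limma adjusted p = 0.00298), and Hist1h1c fell (log2 -1.38, SE 0.24, limma adjusted p = 0.00734). The median was -0.34 within the libraries without Y-linked reads and 0.31 within those with them, so the sign of the list differed between the strata. Histone genes are near-identical copies, and reads could be split between them. Cells in cycle and RNA per cell cannot be told apart in bulk samples: a larger share of dividing cells and more transcript in each would read alike.

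The promoters of genes in the mitosis and replication lists were searched for motifs, in windows of 300 bases (250 before to 50 after the start, RefSeq on GRCm38.p6, both strands). A window was found for 9005 genes of the table. The cell cycle homology region was searched as TTTGAA, a motif that the DREAM and MuvB complexes read, and the E2F motif as TTTNNCGC. TTTGAA was in 34 of 47 (72.3%) mitosis genes that passed, 46 of 70 (65.7%) in the list, and 14.3% of genes of the table. TTTNNCGC was in 11 of 17 (64.7%) replication genes that passed, 20 of 40 (50.0%) in the list and 10.1% of the table. Genes that passed are counted here in either direction. Among all genes that rose, in any list or none, TTTGAA was in 86 of 350 (24.6%) and TTTNNCGC in 53 of 350 (15.1%). Over every promoter in the reference the shares were 20.2% and 5.93%. A match is a description of these letters. The windows below belong to the genes with the smallest p in each list that hold the motif, with the motif in capitals.

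Top2a, chr11:99024140-99024439, minus strand: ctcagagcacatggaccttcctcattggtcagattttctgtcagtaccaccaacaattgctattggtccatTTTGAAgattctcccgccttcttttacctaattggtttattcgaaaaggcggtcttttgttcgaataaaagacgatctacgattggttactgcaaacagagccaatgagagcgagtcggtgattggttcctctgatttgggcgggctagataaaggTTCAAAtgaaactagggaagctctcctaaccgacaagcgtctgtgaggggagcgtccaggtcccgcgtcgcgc
Kntc1, a kinetochore gene, chr5:123749476-123749775, plus strand: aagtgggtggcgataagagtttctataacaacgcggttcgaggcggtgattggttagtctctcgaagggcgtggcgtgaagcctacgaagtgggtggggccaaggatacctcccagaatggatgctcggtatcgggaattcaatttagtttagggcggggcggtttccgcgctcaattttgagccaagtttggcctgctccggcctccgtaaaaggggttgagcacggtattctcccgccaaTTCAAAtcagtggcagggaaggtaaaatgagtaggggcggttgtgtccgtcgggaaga
Pclaf, chr9:65890073-65890372, plus strand: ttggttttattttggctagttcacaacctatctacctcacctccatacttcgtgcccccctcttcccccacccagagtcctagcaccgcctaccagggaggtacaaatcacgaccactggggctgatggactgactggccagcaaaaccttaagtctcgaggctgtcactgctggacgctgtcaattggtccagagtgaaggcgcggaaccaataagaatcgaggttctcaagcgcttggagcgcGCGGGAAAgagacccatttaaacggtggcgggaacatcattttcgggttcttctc
Cdc6, chr11:98907901-98908200, plus strand: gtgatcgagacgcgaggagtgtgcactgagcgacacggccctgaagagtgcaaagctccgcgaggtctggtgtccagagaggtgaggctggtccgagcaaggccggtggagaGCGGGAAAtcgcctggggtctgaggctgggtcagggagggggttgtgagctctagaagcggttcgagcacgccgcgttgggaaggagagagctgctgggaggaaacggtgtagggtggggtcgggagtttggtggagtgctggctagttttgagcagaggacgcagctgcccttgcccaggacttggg

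Kntc1, a checkpoint gene of the kinetochore, was at 27.4 to 40.3 in vehicle and 125 to 226 in venetoclax (log2 2.19, SE 0.20, limma adjusted p = 0.000513), and its match begins 8 bases before the start. In Pclaf the match begins 5 bases before the start.

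**Figure D2:**
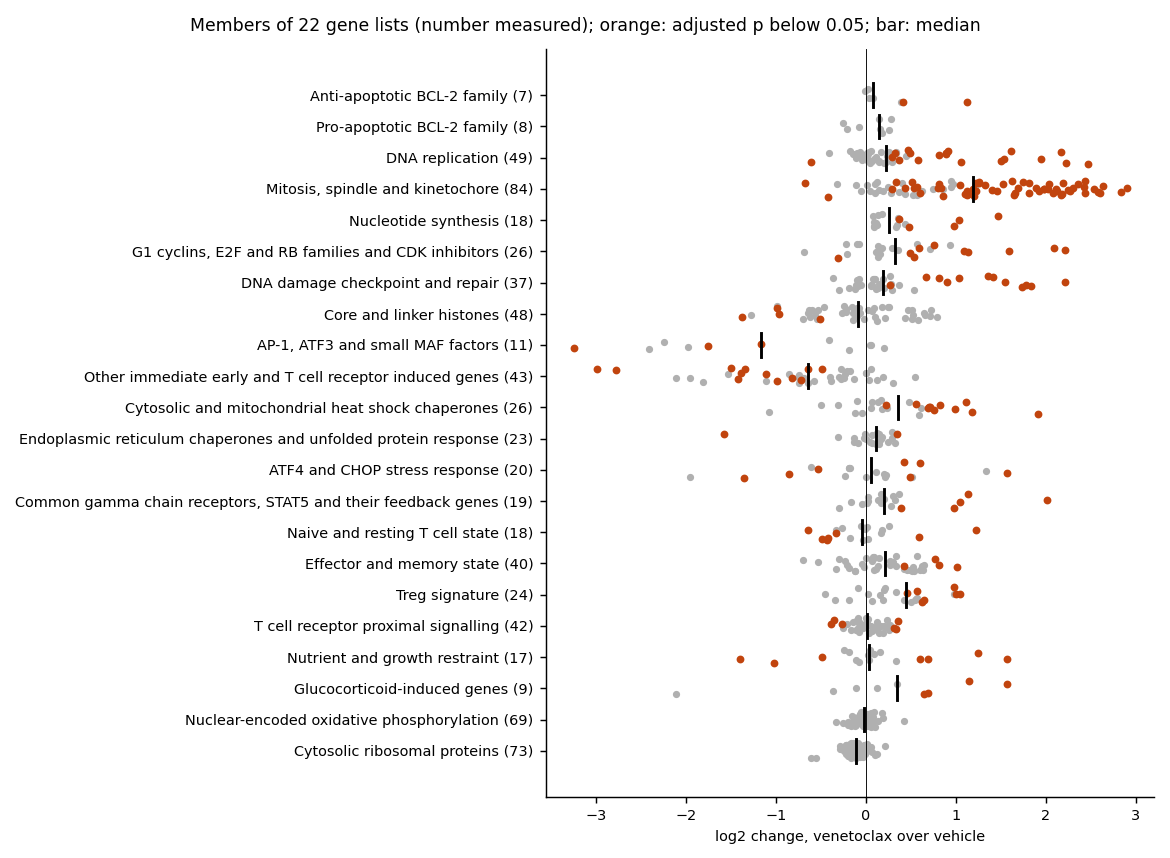
Log2 change of each measured member of 22 gene lists; orange points passed the test at an adjusted p of 0.05 and bars are list medians. Mitosis has its median at 1.20 and AP-1 factors at -1.17, while cytosolic ribosomal proteins and oxidative phosphorylation lie near 0.

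Immediate early genes, which T cell receptor signals and cell stress switch on within minutes, included genes that fell. Of 11 measured AP-1, ATF3 and small MAF factors 3 fell and 0 rose, with a median of -1.17; at an unadjusted p under 0.05 the counts were 1 and 7, with edgeR 0 and 3, and with DESeq2 0 and 4. Of 43 other immediate early and receptor-induced genes 12 fell and 0 rose, with a median of -0.64; at an unadjusted p under 0.05 the counts were 0 and 25, with edgeR 0 and 14, and with DESeq2 0 and 21. With the replicate block the falls were 7 and 25, and 2 of the other immediate early genes rose. Leaving out 1 library moved the AP-1 falls to 6 lacking vehicle 3. It moved the immediate early falls to 6 lacking vehicle 1, 6 lacking vehicle 2, 25 lacking vehicle 3, 5 lacking venetoclax 1, 7 lacking venetoclax 3 and 7 lacking venetoclax 4.

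Fosb (Entrez 14282; chromosome 7, 19302696 to 19310118) was at 1040.4, 3246, 778 and 3769 in vehicle replicates 1 to 4 and 235, 432, 55.4 and 209 in venetoclax replicates 1 to 4. Vehicle libraries spread over more than 4-fold, with replicates 2 and 4 high, and venetoclax replicate 3 was lowest of all (log2 -3.25, SE 0.64, limma adjusted p = 0.0139). Jund, another AP-1 member, was steadier, at 5149.9, 5241, 6154 and 8010.4 in vehicle replicates 1 to 4 and 2839, 2941, 2365 and 2646 in venetoclax replicates 1 to 4 (log2 -1.17, SE 0.13, limma adjusted p = 0.000943). Plk2, a stress-induced polo-like kinase, was at 139.6, 283, 86.5 and 506 in vehicle replicates 1 to 4 and 20.8, 55.1, 19.1 and 31.6 in venetoclax replicates 1 to 4 (log2 -2.78, SE 0.51, limma adjusted p = 0.00928). The spread within groups was so wide for Jun, at 12337, 14792, 4120.4 and 20081 in vehicle replicates 1 to 4 and 3813, 5806, 248 and 3401 in venetoclax replicates 1 to 4, that it did not pass (log2 -2.41, SE 0.87, limma adjusted p = 0.127; 0.000405 with the replicate block). Venetoclax replicate 2 lay above vehicle replicate 3. Fos (log2 -2.24, SE 0.99, limma adjusted p = 0.213; block 0.0018), Junb (log2 -1.98, SE 0.55, limma adjusted p = 0.059; block 4.06e-05) and Dusp1 (log2 -2.11, SE 0.62, limma adjusted p = 0.0682; block 7.91e-06) passed with the block and not without it.

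Further genes that fell were Gadd45b (log2 -1.42, SE 0.28, limma adjusted p = 0.0139), Ier2 (log2 -0.83, SE 0.14, limma adjusted p = 0.00734), Ier5 (log2 -0.72, SE 0.11, limma adjusted p = 0.00383) and the zinc finger factor Zfp36l1 (log2 -0.49, SE 0.09, limma adjusted p = 0.011). Klf4, a quiescence factor, fell (log2 -2.99, SE 0.72, limma adjusted p = 0.0337), a call lost on leaving out any of vehicle 1, 2 or 4 or venetoclax 1 or 4 (adjusted p 0.0621 to 0.0913). Nr4a1, an orphan receptor induced by the T cell receptor, fell (log2 -1.35, SE 0.31, limma adjusted p = 0.0275), a call lost on leaving out any of vehicle 1 or 2 or venetoclax 1, 2, 3 or 4 (adjusted p 0.0626 to 0.0831). Cd69, a surface marker of recent activation, was at 2935 to 5027 in vehicle and 3179 to 4359 in venetoclax (log2 0.00, SE 0.18, limma adjusted p = 0.999), and Egr1 was at 1793 to 4638 in vehicle and 1477 to 1916 in venetoclax (log2 -0.70, SE 0.23, limma adjusted p = 0.0989; block 0.00254). The 2 list medians were -1.18 and -0.43 without Y-linked reads and -0.96 and -0.83 with them. Without both libraries numbered 3, 7 AP-1 factors and 26 other immediate early genes fell, where 676 of all 11171 genes fell. With the log Y-linked level as a covariate 2 and 7 fell, where 115 of all genes fell. Without venetoclax replicates 1 and 3 together 1 and 0 fell, where 25 of all genes fell.

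The cAMP response element TGACGTCA was in 5 of 33 (15.2%) of the other immediate early genes with a window, in 1 of 11 (9.09%) AP-1 factors and in 3.71% of genes of the table. Among genes that passed it was in 1 of 10 and 1 of 3 of these lists, and in 7 of 269 (2.6%) of all genes that fell. The serum response element was in 3 of 33 (9.09%) of the other immediate early genes, 0 of 10 of those that passed, 0 of 11 AP-1 factors and 1.5% of genes of the table. Of the genes in these lists that fell and hold TGACGTCA, Plk2 has the smallest p. Its window is printed with that motif in capitals, which begins 62 bases before the start.

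Plk2, chr13:110394794-110395093, plus strand: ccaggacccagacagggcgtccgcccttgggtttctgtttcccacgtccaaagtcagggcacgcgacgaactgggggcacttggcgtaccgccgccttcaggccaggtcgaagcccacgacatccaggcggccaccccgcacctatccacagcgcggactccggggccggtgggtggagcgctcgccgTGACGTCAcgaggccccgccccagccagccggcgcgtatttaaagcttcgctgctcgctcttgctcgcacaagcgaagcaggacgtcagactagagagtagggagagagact

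**Figure D3:**
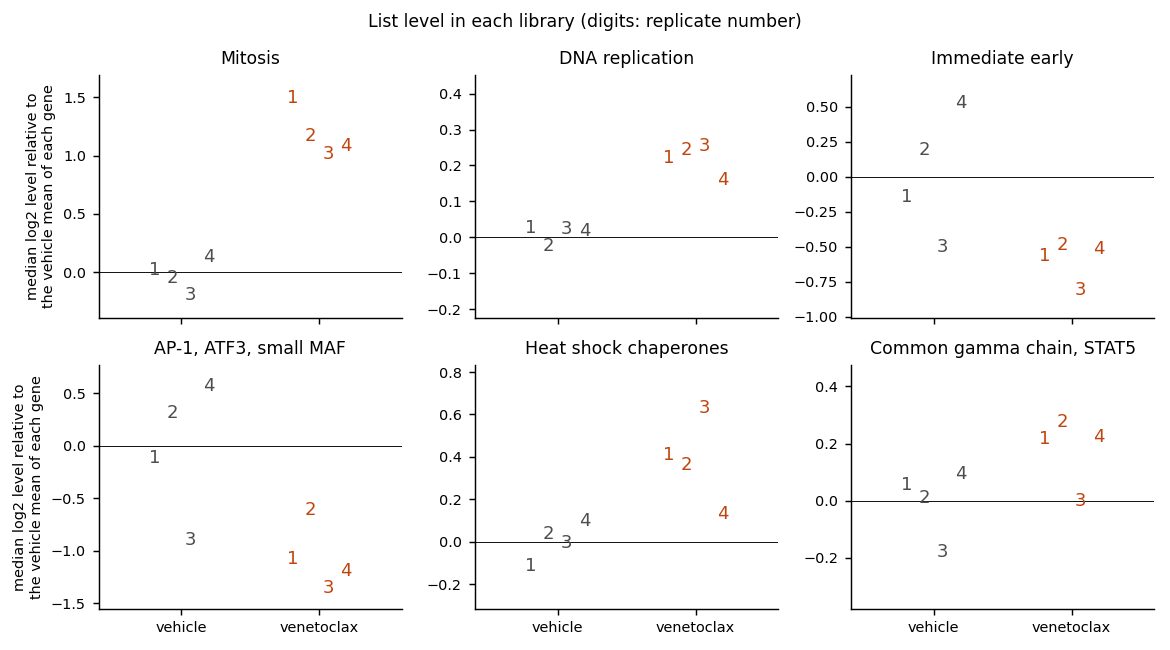
Median over list members of the log2 level relative to each gene's vehicle mean, in the 8 libraries; digits are replicate numbers. Mitosis, replication and heat shock chaperones do not overlap between groups. For AP-1 factors vehicle replicate 3 (-0.90) lies below venetoclax replicate 2 (-0.61), and so it does for the other immediate early genes (-0.50 and -0.49). For the common gamma chain and STAT5 list, venetoclax replicate 3 (-0.003) lies below vehicle replicates 1 (0.05), 2 (0.01) and 4 (0.09).

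Several heat shock chaperones rose. Of 26 cytosolic and mitochondrial chaperones 11 rose and 0 fell (13 and 1 with the replicate block), with a median of 0.36; at an unadjusted p under 0.05 the counts were 16 and 0, with edgeR 11 and 0, and with DESeq2 12 and 0. Stip1, the bridge between HSP70 and HSP90, was at 2276, 2645, 2381 and 2916 in vehicle replicates 1 to 4 and 6532, 5909.5, 6866 and 4215 in venetoclax replicates 1 to 4 (log2 1.18, SE 0.14, limma adjusted p = 0.0012). Chordc1, an HSP90 partner, was at 2520.4, 2808, 3492 and 2982 in vehicle replicates 1 to 4 and 6513, 5888, 6339 and 4699 in venetoclax replicates 1 to 4 (log2 0.99, SE 0.12, limma adjusted p = 0.00132), and in both genes venetoclax replicate 4 was lowest of its group. Hsph1, the HSP110 exchange factor, was at 1227, 2748, 1497 and 3993 in vehicle replicates 1 to 4 and 9639, 8066, 10888 and 4798 in venetoclax replicates 1 to 4 (log2 1.91, SE 0.36, limma adjusted p = 0.0109). Vehicle replicates 2 and 4 stood nearest the venetoclax libraries. Dnaja1 (log2 1.12, SE 0.19, limma adjusted p = 0.00664), Fkbp4 (log2 0.76, SE 0.11, limma adjusted p = 0.00383), Ahsa1 (log2 0.82, SE 0.13, limma adjusted p = 0.00486) and the mitochondrial chaperonin Hspd1 (log2 0.69, SE 0.11, limma adjusted p = 0.00465) rose. Hspa8 (log2 0.61, SE 0.17, limma adjusted p = 0.0528; block 0.013) and Hsp90aa1 (log2 0.59, SE 0.24, limma adjusted p = 0.179) did not pass, nor did Dnajb1, at 3486 to 8325 in vehicle and 3862 to 7964 in venetoclax. Cirbp, a cold-induced RNA-binding protein outside the list, was at 4020.0, 3489, 3844 and 2772 in vehicle replicates 1 to 4 and 1373, 1714, 1448 and 1604 in venetoclax replicates 1 to 4 and fell (log2 -1.19, SE 0.12, limma adjusted p = 0.00058). The chaperone rises numbered 8 to 12 when 1 library was left out. They were 7 with the log Y-linked level as a covariate and 3 without venetoclax replicates 1 and 3 together. The chaperone median was 0.16 without and 0.30 with Y-linked reads.

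A heat shock element of 3 alternating units of GAA and TTC, each separated by 2 bases, was in 3 of 11 (27.3%) chaperone genes that passed, 5 of 21 (23.8%) in the list and 0.533% of genes of the table. Among all genes that rose it was in 6 of 350 (1.71%). Of the chaperone genes that passed and hold it, Chordc1 has the smallest p, and its overlapping matches are in capitals.

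Chordc1, chr9:18292017-18292316, plus strand: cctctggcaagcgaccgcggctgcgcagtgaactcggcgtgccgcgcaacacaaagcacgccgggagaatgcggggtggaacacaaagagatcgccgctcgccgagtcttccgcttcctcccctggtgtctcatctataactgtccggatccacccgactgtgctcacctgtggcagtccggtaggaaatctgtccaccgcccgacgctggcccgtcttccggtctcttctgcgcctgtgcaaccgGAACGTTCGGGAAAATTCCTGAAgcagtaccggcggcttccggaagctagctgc

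Of 23 genes of endoplasmic reticulum chaperones and the unfolded protein response 1 rose and 1 fell (4 and 1 with the replicate block): Hsp90b1, which folds integrins and receptors, rose (log2 0.35, SE 0.07, limma adjusted p = 0.0151), a call lost on leaving out venetoclax 1 (adjusted p = 0.0714), and Dnajb9, a BiP co-factor, fell (log2 -1.58, SE 0.26, limma adjusted p = 0.00622). Dnajb9 was at 1863, 2702, 1359 and 4007 in vehicle replicates 1 to 4 and 717, 842, 713 and 804 in venetoclax replicates 1 to 4, again with vehicle replicate 4 high. The endoplasmic reticulum rises became 0 without venetoclax 1 and 2 without vehicle 3. Of 20 ATF4 and CHOP response genes 4 rose and 3 fell (4 and 4 with the replicate block). The ATF4 and CHOP rises became 2 without venetoclax 1, 2 or 3, and the falls 1 without vehicle 1 or 2 or venetoclax 1, 3 or 4. Trib3, a target of both factors, fell (log2 -0.86, SE 0.14, limma adjusted p = 0.00498). Psat1, of serine synthesis, rose (log2 0.49, SE 0.08, limma adjusted p = 0.00525).

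Interleukin-2 and STAT5 genes included several that rose. Of 19 genes of common gamma chain receptors, STAT5 and feedback, 5 rose and 0 fell, with 8 higher and 1 lower under the replicate block; at an unadjusted p under 0.05 the counts were 8 and 1, with edgeR 5 and 0, and with DESeq2 7 and 0. Cish, a STAT5-induced inhibitor (Entrez 12700; chromosome 9, 107296659 to 107302784), was at 470.1, 409, 232 and 363 in vehicle replicates 1 to 4 and 1462, 1844, 1462 and 1125 in venetoclax replicates 1 to 4 (log2 2.02, SE 0.21, limma adjusted p = 0.000625). Il2rb, the shared β chain of the interleukin-2 and interleukin-15 receptors, was at 2648, 2183, 1534 and 2441 in vehicle replicates 1 to 4 and 5192, 4583, 3815 and 5645 in venetoclax replicates 1 to 4 (log2 1.14, SE 0.17, limma adjusted p = 0.00344). Il2ra, the α chain, was at 199.6, 173, 144 and 188 in vehicle replicates 1 to 4 and 338, 359, 264 and 446 in venetoclax replicates 1 to 4 (log2 0.98, SE 0.16, limma adjusted p = 0.00589). In each of the 3 genes the groups did not overlap. Il7r, the receptor of the main survival cytokine of resting T cells, did overlap, at 13569.5 to 16600.0 in vehicle and 13735 to 18939 in venetoclax (log2 0.17, SE 0.11, limma adjusted p = 0.401). The list median was 0.24 without and 0.20 with Y-linked reads.

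Markers of differentiation moved less evenly. Of 18 genes of naive and resting state 2 rose and 5 fell (3 and 7 with the replicate block). Igfbp4, a secreted binding protein of naive CD4 cells, was at 17745, 16945, 12618 and 13176 in vehicle replicates 1 to 4 and 36117, 39621, 36539.6 and 28626 in venetoclax replicates 1 to 4 (log2 1.23, SE 0.14, limma adjusted p = 0.000943), and Treml2 rose (log2 0.60, SE 0.09, limma adjusted p = 0.0037). The falls of that list were Klf2, S1pr1, Foxo1, Satb1 and Tdrp, and their count of 5 became 0 lacking vehicle 1, 2 lacking vehicle 2, 3 lacking vehicle 4, 0 lacking venetoclax 1, 1 lacking venetoclax 2, 2 lacking venetoclax 3 and 3 lacking venetoclax 4. S1pr1, the receptor that leads T cells out of lymph nodes, was at 14325 to 17227 in vehicle and 10761 to 12746 in venetoclax (log2 -0.42, SE 0.09, limma adjusted p = 0.0164), a call lost on leaving out any of vehicle 1 or venetoclax 1 or 2 (adjusted p 0.0521 to 0.0695). Ccr7, which guides T cells into lymph nodes, was at 9391 to 11864 in vehicle and 9906 to 11935 in venetoclax, and the groups overlapped. Of 40 effector and memory genes 4 rose and 0 fell (14 and 3 with the replicate block); at an unadjusted p under 0.05 the counts were 12 and 1, with edgeR 4 and 0, and with DESeq2 10 and 1. Vim, the intermediate filament of activated lymphocytes, was at 4873, 4536, 4509 and 4641 in vehicle replicates 1 to 4 and 7769, 7855, 8493 and 7469 in venetoclax replicates 1 to 4 (log2 0.77, SE 0.07, limma adjusted p = 0.000513). Cd44 (log2 0.34, SE 0.14, limma adjusted p = 0.201; block 0.00358) and Cxcr3 (log2 0.54, SE 0.17, limma adjusted p = 0.0922; block 0.00264) passed with the block and not without it. The effector median was 0.56 without Y-linked reads and 0.16 with them.

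Of 24 genes of the Treg signature measured in these FOXP3- cells 7 rose and 0 fell (10 and 1 with the replicate block); at an unadjusted p under 0.05 the counts were 11 and 1, with edgeR 7 and 0, and with DESeq2 8 and 0. The Treg signature rises became 4 without venetoclax 1. Gpr83 (log2 1.01, SE 0.11, limma adjusted p = 0.000865) and Capg (log2 0.65, SE 0.08, limma adjusted p = 0.00142) rose beside Il2ra, while Ctla4 was at 371 to 802 in vehicle and 298 to 467 in venetoclax (log2 -0.45, SE 0.26, limma adjusted p = 0.347) and Foxp3 overlapped between groups. The median of this list was 0.68 without and 0.20 with Y-linked reads. In signalling at the receptor, 3 of 42 genes rose and 3 fell, against 3.92% and 2.99% of all genes (7 and 4 with the replicate block). The receptor signalling rises became 0 without venetoclax 1 and 1 without vehicle 1 or 2 or venetoclax 2, and the falls 1 without vehicle 1 or 2 or venetoclax 1 or 2. Cd5, a surface brake on receptor signals, was at 11991, 10986, 10932 and 11862 in vehicle replicates 1 to 4 and 8579, 8378, 8892 and 9124 in venetoclax replicates 1 to 4, and the venetoclax libraries were the 4 lowest (log2 -0.39, SE 0.07, limma adjusted p = 0.00769). Among 30 genes of chemokine receptors, integrins and egress 4 rose and 3 fell (10 and 6 with the replicate block). The migration rises became 1 without venetoclax 1 or 4 and 2 without vehicle 2 or 4 or venetoclax 2 or 3, and the falls 0 without venetoclax 1 and 1 without venetoclax 2 and 5 without vehicle 3. Ccr8 was at 34 to 54.6 in vehicle and 76.6 to 99.8 in venetoclax (log2 1.01, SE 0.18, limma adjusted p = 0.00794).

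Of 9 glucocorticoid-induced genes 4 rose and 0 fell (4 and 2 with the replicate block); at an unadjusted p under 0.05 the counts were 4 and 2, with edgeR 3 and 0, and with DESeq2 3 and 2. The glucocorticoid rises became 1 without venetoclax 1 and 2 without vehicle 1 or venetoclax 2 or 3, and the falls 2 without vehicle 3. Ddit4, which restrains mTORC1, was at 4449, 5746, 4678 and 2525 in vehicle replicates 1 to 4 and 11204, 13730.0, 14007 and 10747 in venetoclax replicates 1 to 4, without overlap (log2 1.56, SE 0.21, limma adjusted p = 0.00214). Fkbp5, a co-chaperone of the glucocorticoid receptor, rose (log2 0.65, SE 0.13, limma adjusted p = 0.0124), a call lost on leaving out venetoclax 1 (adjusted p = 0.0537). The largest change in the list went the other way, at -2.11, the value given above for Dusp1, which limma did not call without the block. In the list of nutrient and growth restraint 4 of 17 rose and 3 fell (5 and 4 with the replicate block). Ddit4 is the largest rise of this list, of the glucocorticoid list and of the ATF4 and CHOP list, so their counts are not separate observations. The growth restraint rises became 1 without vehicle 1 or venetoclax 1, 2 or 3, and the falls 1 without vehicle 1 or 2 or venetoclax 1, 2 or 3. Arrdc3, an arrestin-like protein, fell (log2 -1.02, SE 0.11, limma adjusted p = 0.000801), while Txnip was at 20157 to 29127 in vehicle and 21856 to 29618 in venetoclax (log2 0.03, SE 0.13, limma adjusted p = 0.925).

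Metabolic and translation lists held few calls. Of 69 nuclear-encoded oxidative phosphorylation genes 0 passed limma's test in either direction (0 and 1 with the replicate block), with a median of -0.02; at an unadjusted p under 0.05 the counts were 1 and 1, with edgeR 0 and 0, and with DESeq2 0 and 1. Of 73 cytosolic ribosomal proteins 0 passed (1 and 0 with the replicate block), with a median of -0.11; at an unadjusted p under 0.05 the counts were 1 and 0, with edgeR 0 and 0, and with DESeq2 0 and 0. That median was -0.37 without Y-linked reads and 0.19 with them. Of 12 mitochondrially encoded genes 0 passed (0 and 0 with the replicate block); at an unadjusted p under 0.05 the counts were 0 and 0, with edgeR 0 and 0, and with DESeq2 0 and 0. In glycolysis 2 of 31 rose and 1 fell, against 3.92% and 2.99% of all genes (8 and 2 with the replicate block). The glycolysis rises became 0 without vehicle 1 or 2 or venetoclax 1, 2 or 3 and 1 without vehicle 4 or venetoclax 4 and 5 without vehicle 3. Pdk1, which holds pyruvate out of mitochondria, was at 12338, 12897, 13430.5 and 11361 in vehicle replicates 1 to 4 and 8414, 9116, 8136 and 9421 in venetoclax replicates 1 to 4 (log2 -0.51, SE 0.08, limma adjusted p = 0.00468). In cholesterol and fatty acid synthesis 0 of 29 rose and 1 fell (10 and 1 with the replicate block); at an unadjusted p under 0.05 the counts were 10 and 2, with edgeR 0 and 1, and with DESeq2 5 and 1. The lipid synthesis rises became 2 without vehicle 3, and the falls 0 without vehicle 1, 2 or 4 or venetoclax 1, 2 or 4. Of 37 interferon response genes 1 fell, Ifit2 (log2 -0.62, SE 0.08, limma adjusted p = 0.00227), and 0 rose (2 and 9 with the replicate block); at an unadjusted p under 0.05 the counts were 2 and 6, with edgeR 0 and 1, and with DESeq2 1 and 4. The interferon falls became 3 without vehicle 2. Among GIMAP GTPases, which sustain lymphocytes, Gimap6 fell (log2 -0.61, SE 0.10, limma adjusted p = 0.00621).

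Of the 772 genes 576 were in no list. Drc1, of the dynein regulatory complex of motile cilia (Entrez 381738; chromosome 5, 30281335 to 30366695), was at 67.8, 88, 49.6 and 39.7 in vehicle replicates 1 to 4 and 1058, 1626, 1426 and 659.7 in venetoclax replicates 1 to 4 (log2 4.24, SE 0.30, limma adjusted p = 0.000336). Neb, the sarcomere protein nebulin, was at 171, 203, 61.2 and 126 in vehicle replicates 1 to 4 and 1287, 1738, 834 and 824 in venetoclax replicates 1 to 4 (log2 3.11, SE 0.35, limma adjusted p = 0.000943). Coro2a, a coronin that binds actin, was at 332, 295, 151 and 293 in vehicle replicates 1 to 4 and 1168, 2283, 689 and 891 in venetoclax replicates 1 to 4 (log2 2.14, SE 0.35, limma adjusted p = 0.00541), and Myo6, the motor that walks to the minus end of actin, was at 924, 739.7, 610.0 and 489.6 in vehicle replicates 1 to 4 and 2109, 2849, 2661 and 1672 in venetoclax replicates 1 to 4 (log2 1.76, SE 0.21, limma adjusted p = 0.00106). For these 4 genes the groups did not overlap, and for each of them the venetoclax maximum was in replicate 2. Whether reads were counted by strand is not stated, so overlapping transcripts cannot be told apart. Gucy1a3 (1.22) and Gucy1b3 (1.52), both subunits of soluble guanylate cyclase, rose together and were chosen after their values were seen. Other genes with small p were Mdfic (log2 1.13, SE 0.09, limma adjusted p = 0.000336), the receptor Gpr34 (log2 1.12, SE 0.10, limma adjusted p = 0.000513) and Ggt1 of glutathione metabolism (log2 1.16, SE 0.10, limma adjusted p = 0.000513).

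Falls outside the lists included Zc3h6, a zinc finger gene, at 1300.0, 1376, 1177 and 929.5 in vehicle replicates 1 to 4 and 382, 479.8, 482 and 501 in venetoclax replicates 1 to 4 (log2 -1.37, SE 0.13, limma adjusted p = 0.000573). Trim13, a ubiquitin ligase of the endoplasmic reticulum, was at 265, 318, 230.1 and 309.9 in vehicle replicates 1 to 4 and 116, 116, 117 and 128 in venetoclax replicates 1 to 4 (log2 -1.21, SE 0.12, limma adjusted p = 0.000619), a tight group in venetoclax. Tubb2a, a β-tubulin with close paralogs, was at 986, 972, 1072 and 1164 in vehicle replicates 1 to 4 and 472, 453, 569 and 543 in venetoclax replicates 1 to 4 (log2 -1.04, SE 0.10, limma adjusted p = 0.000513). Prss12 (log2 -1.75, SE 0.32, limma adjusted p = 0.00932) and Grm6 (log2 -1.43, SE 0.18, limma adjusted p = 0.0015) fell from low levels. Ephb6, a kinase-dead ephrin receptor of T cells (log2 -0.55, SE 0.06, limma adjusted p = 0.000865), and Neurl3 (log2 -0.69, SE 0.08, limma adjusted p = 0.00111) also fell.

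The difference between subsets was tested as Tcon change minus Treg change over all 16 libraries, for 10774 genes in both tables. Of these 140 passed, 1.3% of those tested, 104 with the more positive change in Tcon and 36 with the more negative. The count was 389 with the replicate codes as a block and 43 to 149 when 1 code was left out. Bcl2 had a change of 1.13 in Tcon and 0.01 in Treg (log2 difference 1.11, SE 0.18, limma adjusted p = 0.00487). Drc1 differed most among the genes named (log2 difference 3.73, SE 0.36, limma adjusted p = 6.2e-05), with 0.52 in Treg. Myo6 was 1.76 in Tcon and -0.48 in Treg (log2 difference 2.24, SE 0.27, limma adjusted p = 0.000612).

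Cell cycle and cytokine genes were among the differences. In mitosis 19 of 84 genes passed with the more positive change in Tcon and 0 with the more negative, and in replication 9 of 49. Top2a was 0.41 in Treg (log2 difference 1.63, SE 0.29, limma adjusted p = 0.00839), and Cish was 0.49 (log2 difference 1.53, SE 0.23, limma adjusted p = 0.0033). Il2ra was 0.02 in Treg (log2 difference 0.96, SE 0.17, limma adjusted p = 0.00857). Il7r had the more positive change in Treg, with 1.08 in Treg (log2 difference -0.91, SE 0.16, limma adjusted p = 0.0106). In heat shock chaperones and in AP-1 factors 0 of 26 and 0 of 11 differences passed limma's test; a p that misses the threshold does not show equal change. Stip1 had 1.18 in Tcon and 1.24 in Treg, and Fosb -3.25 and -3.57. Among the 764 Tcon calls measured in Treg, 394 passed there too, or 51.6%, and 388 of them had the same sign. These 394 were 18.6% of the Treg calls among genes measured in both subsets. Over all genes measured in Treg, 2164 of 11067 passed, the background for the 51.6%. The libraries of the 2 subsets share replicate codes.

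**Figure D4:**
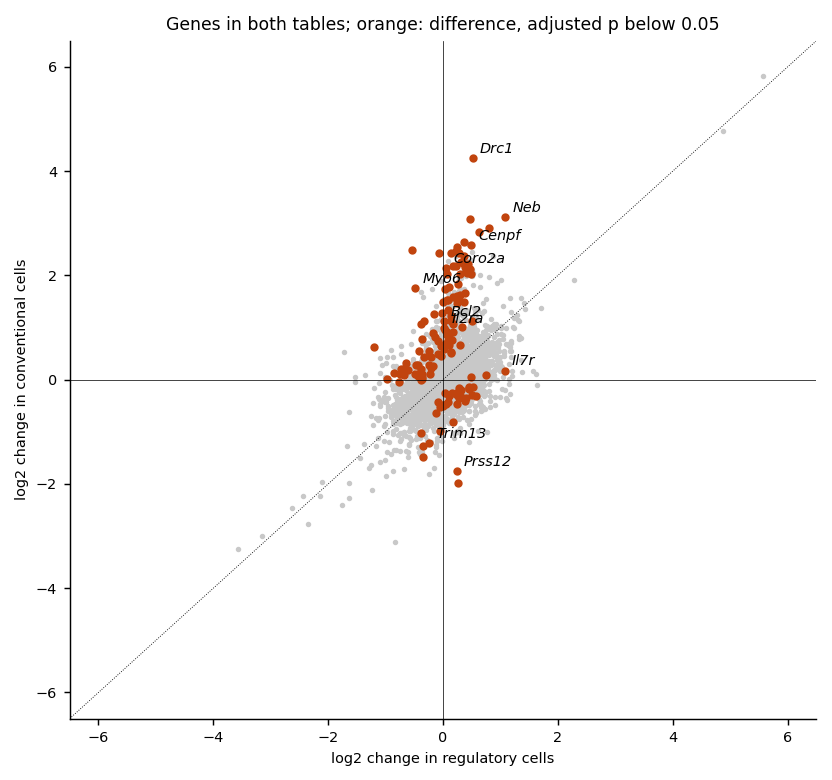
Log2 change in Tcon (vertical) against Treg (horizontal) for the 10774 genes in both tables; orange points passed the test of the difference and the dotted line marks equal change. Drc1, Neb and Myo6 lie far above the line and Prss12 below it, and the 2 grey points at the upper right are the Y-linked genes Ddx3y and Kdm5d.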

How the data were processed

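Total RNA of sorted cells was sequenced on a NovaSeq, per the labels' protocols. HISAT2 and SAMtools were used with the mm10 build, per the submitters' processing notes. Neither their versions nor the read counter and strand setting are stated there. The deposited library columns hold a normalized signal, read counts divided by 1 size factor per library, per the file headers and values. All values in a column were whole multiples of its smallest value (tolerance 0.01), which gave back the reads.

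The main test was limma 3.58.1 (R 4.3.3) on log2 (value + 1), 4 against 4 libraries, with an empirical Bayes trend and Benjamini-Hochberg adjustment over 11171 genes at 0.05. edgeR 4.0.16 and DESeq2 1.42.0 on recovered reads were alternatives. Tests on simulated data found 95.7% of genes changed by 1 on the log2 scale at this design and 100% of those changed by 2 (200 changed genes among 11171). The changed genes all had a vehicle mean above 50, so lower genes such as Esco2, Cdc6 and Chek1 are not covered. The simulated libraries held no differences tied to Y-linked reads or replicate number. P-values measure the spread between these libraries. A count of 0 allows up to 3 reads, for counting error only.

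Deviations of same-numbered libraries correlated at 0.119, 0.555, 0.614 and 0.272 for numbers 1 to 4. Each was over 0.1, the rule for taking the numbers as pairs, though venetoclax 1 correlated more with vehicle 2 (0.292) and 4 (0.223), and vehicle 1 with venetoclax 4 (0.252). The fit with the number as a block is given beside list counts and where it changes the call of a gene given with its test. Libraries of a group differed by more than counting noise (lowest chi-square per degree of freedom 6.41). Of 11171 Entrez identifiers 11168 matched RefSeq on GRCm38.p6.

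The members and lists were chosen with earlier results of these data known, and lists can share members. Named genes are the key genes, the 12 largest changes in each direction with a mean of at least 50, the 10 smallest p-values, up to 6 called members per list and the 5 largest differences from Treg in each direction; some are not reported here. The authors' own fold changes were not used here.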

Additional observations from a re-analysis of the deposited data

Results flagged for a closer look

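In 21 of 410 groups of 4 libraries examined, over the genes named with a mean of at least 50, 1 library lay apart from the other 3 of its group, where chance alone flags about 1 in 20. Vehicle replicate 1 lay above its group in Jchain (478), in normalized counts. Vehicle replicate 1 lay below its group in E2f1 (46.2) and Hsp90b1 (8257), in normalized counts. Vehicle replicate 2 lay above its group in Itga7 (319), in normalized counts. Vehicle replicate 2 lay below its group in Klrb1c (269), in normalized counts. Vehicle replicate 3 lay above its group in Bub1b (77), in normalized counts. Vehicle replicate 3 lay below its group in Cd4 (21974) and Cdk6 (129), in normalized counts. Vehicle replicate 4 lay below its group in Gimap5 (2308), in normalized counts. Venetoclax replicate 1 lay above its group in Nusap1 (225), Cd4 (26859), Kif11 (386), Hspa4l (998) and Top2a (2006), in normalized counts. Venetoclax replicate 2 lay above its group in Pik3ip1 (5184), in normalized counts. Venetoclax replicate 3 lay above its group in Tnfrsf18 (2007), in normalized counts. Venetoclax replicate 3 lay below its group in Btg1 (23819) and Ctla4 (298), in normalized counts. Venetoclax replicate 4 lay above its group in Klrb1c (746) and Trim13 (128), in normalized counts. Venetoclax replicate 4 lay below its group in Ccnd3 (5342), in normalized counts.

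The change in Tcon differed from that in Treg, by limma's interaction test, for 20 genes singled out in the report or by the naming rule. The log2 difference, Tcon minus Treg, was positive for Drc1 (3.73), Myo6 (2.24), Cenpf (2.09), Coro2a (2.08), Neb (2.03), Top2a (1.63), Cish (1.53), Rrm2 (1.23), Bcl2 (1.11), Igfbp4 (1.10), Il2ra (0.96), Ccnd3 (0.68) and Vim (0.62). It was negative for Prss12 (-1.99), Itga7 (-0.99), Trim13 (-0.98), H1f0 (-0.94), Zfp316 (-0.91), Il7r (-0.91) and Cdkn1b (-0.42).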

How the results depend on the processing

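Of 137 named genes called in Tcon, 0 changed sign under any alternative run. This is no independent support, because the calls were made on these same libraries. Where the groups do not overlap, as in 754 of the 772 called genes, leaving out libraries cannot turn the sign. The count of genes called was 1364 with DESeq2, 1880 with the replicate block, 326 with the log of the Y-linked level as covariate, 1443 without both replicates numbered 3, 116 without venetoclax replicates 1 and 3, and 306 to 1244 when 1 library was left out. Alternatives added after seeing the data gave 0 genes in the libraries without Y-linked reads, 125 in those with them, 317 with the presence of Y-linked reads as a factor and 595 with the Y-linked level on the linear scale. It was 771, 772, 776, 791, 707 and 786 with pseudocounts of 0.5 and 5, a filter at a mean of 10, upper quartile and total count scaling, and edgeR. The count of differences from Treg was 389 with the replicate block, 129 with a pseudocount of 5, 138 with the filter and 43 to 149 when 1 code was left out. The cause was not tested.

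Some genes that were not called changed sign without being called in the new direction. Using the libraries with Y-linked reads gave log2 changes of 0.17 for Isg15, 0.0733 for Bax, 0.0609 for Bcl2a1d, -0.31 for Cd69, 0.0018 for Cd8b1, -0.27 for Cdkn1a, -0.11 for Mcl1 and -0.12 for Txnip. The log Y-linked covariate gave log2 changes of 0.23 for Bcl2a1d, -0.23 for Cd69, -0.0534 for Mcl1 and -0.12 for Txnip. Leaving out both replicates numbered 3 gave log2 changes of 0.19 for Bcl2a1d, -0.16 for Cd69, 0.0152 for Cd8b1, -0.17 for Cdkn1a, -0.0497 for Mcl1, -0.0007 for Pcna and -0.0668 for Txnip. Leaving out venetoclax replicates 1 and 3 gave log2 changes of 0.12 for Bcl2a1d, -0.0356 for Cd69, -0.0455 for Ccr7, -0.0064 for Mcl1 and -0.11 for Pcna. Using the libraries without Y-linked reads gave log2 changes of 0.41 for Bcl2a1d, -0.13 for Cd69, 0.0745 for Cd79a, -0.0202 for Ccr7, 0.0051 for Itgax, -0.19 for Pcna, -0.0132 for Foxp3 and -0.11 for Txnip. The Y-linked factor gave log2 changes of 0.23 for Bcl2a1d, -0.22 for Cd69, -0.0524 for Mcl1 and -0.12 for Txnip. The linear Y-linked covariate gave log2 changes of 0.0861 for Bcl2a1d, -0.10 for Cd69, -0.0077 for Mcl1 and -0.0407 for Txnip. Upper quartile scaling gave log2 changes of -0.0145 for Cd69 and -0.001 for Pcna. EdgeR gave log2 changes of -0.038 for Cd69 and -0.0995 for Cdkn1a. DESeq2 gave log2 changes of -0.0381 for Cd69 and -0.0903 for Cdkn1a. With 1 library left out in turn, log2 changes ranged from -0.18 to 0.13 for Bcl2a1d, -0.13 to 0.13 for Cd69, -0.14 to 0.0642 for Cd8b1, -0.0362 to 0.0762 for Ccr7, -1.01 to 0.12 for Jchain and -0.12 to 0.31 for Klrb1c. They ranged from -0.0388 to 0.0733 for Mcl1, -0.0657 to 0.0791 for Pcna, -0.0361 to 0.23 for S100a4, -0.0742 to 0.0198 for Slc2a1, -0.0712 to 0.11 for Txnip, -0.12 to 0.21 for Tbx21 and -0.36 to 0.0774 for Dnajb1.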

Other observations

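The chaperonin TRiC, which folds actin and tubulin, was in no list and was chosen after its values were seen. Of 8 subunits measured, Cct3 (log2 0.52, SE 0.08, limma adjusted p = 0.00525), Cct6a (log2 0.45, SE 0.11, limma adjusted p = 0.0292) and Tcp1 (log2 0.33, SE 0.08, limma adjusted p = 0.0293) rose. The other 5 had changes between 0.18 for Cct2 and 0.27 for Cct5, and Cct4, Cct5, Cct7 and Cct8 passed with the replicate block (limma adjusted p 0.00843 to 0.034). Frat1 (-0.98) and Frat2 (-1.39), paralogs that bind GSK3, fell, and so did Tubb2b (-1.05), a paralog of Tubb2a, all likewise chosen after their values were seen.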
